A study of Homo sapiens with 12 samples.

Results

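KDM2B binding was examined at 7 genes that encode transcription factors of the T-cell lineage: GATA3, TCF7, LEF1, BCL11B, RUNX3, TOX and ETS1. Each gene was represented by a fixed hg19 window, and a peak belonged to a gene when it overlapped that window by at least 1 bp. The windows ran from 8.08 to 8.122 Mb on chromosome 10 for GATA3, from 133.445 to 133.488 Mb on chromosome 5 for TCF7, and from 108.963 to 109.096 Mb on chromosome 4 for LEF1. They ran from 99.63 to 99.745 Mb on chromosome 14 for BCL11B, from 25.221 to 25.297 Mb on chromosome 1 for RUNX3, from 59.712 to 60.037 Mb on chromosome 8 for TOX, and from 128.323 to 128.463 Mb on chromosome 11 for ETS1. All 7 windows held peaks, and 169 of the 79473 peaks in the series fell in them.

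The series mapped KDM2B with ChIP-seq, in which DNA bound by a protein is pulled down with an antibody and sequenced. It covers 7 human leukaemia cell lines for which the labels name no treatment, with 1 KDM2B library and 1 deposited peak list per line. SIL-ALL, JURKAT, HPB-ALL and DND41 derive from T-cell acute lymphoblastic leukaemia (T-ALL), SUP-B15 and REH from B-cell precursor acute lymphoblastic leukaemia, and K562 from a blast crisis of chronic myeloid leukaemia. These lineages are background knowledge of the named lines and are not in the labels. Comparisons are between the 4 T-ALL lines and the remaining 3, so a p-value weighs differences among lines, in which cell line and library cannot be told apart. Each line is a single culture without a replicate, and its own chromosome gains, losses and translocations come with it. The T-ALL lists were longer (12765 to 15304 peaks against 5942 to 8146), and the lowest score differed between lists, from 50 to 80.03. Read depth is unknown for all 7 lists.

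KDM2B is a histone demethylase with a CXXC zinc finger that recognises unmethylated CpG dinucleotides, and it brings a variant Polycomb repressive complex to CpG islands. It is found at the CpG islands of active and of silent genes, so a peak alone does not tell whether a gene is expressed. In the thymus, Notch signals switch on TCF7 and GATA3, which start the T-cell programme. BCL11B then closes off other fates, LEF1 works beside TCF7, RUNX3 and TOX act when CD4 and CD8 lineages separate, and ETS1 serves T, B and natural killer cells. None of these roles was measured in the series.

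In the full lists every T-ALL line had at least 1 KDM2B peak in all 7 windows. K562 had peaks in 4 of them and REH and SUP-B15 in 5 each. K562 lacked peaks at BCL11B, RUNX3 and TOX, REH lacked them at GATA3 and TOX, and SUP-B15 lacked them at GATA3 and BCL11B. For comparison, hg19 was tiled into consecutive stretches as long as the BCL11B window, the median of the 7 lengths. Of these tiles 13% held a peak of SUP-B15, 14.1% one of REH and 12.4% one of K562. The share was 21% for SIL-ALL, 21.7% for JURKAT, 19.6% for HPB-ALL and 19.7% for DND41. The tiles are not centred on genes, so they describe the genome and not genes of similar size.

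The T-ALL lines had 42 (SIL-ALL), 42 (JURKAT), 35 (HPB-ALL) and 20 (DND41) peaks in the windows. SUP-B15 had 10, REH 14 and K562 6. The counts did not overlap, with means of 34.8 ± 10.4 (SD, n = 4) and 10.0 ± 4.0 (SD, n = 3), a ratio of 3.48. The whole T-ALL lists were themselves 2.01 times as long. As a share of its own list, the windows held 0.274% of the peaks in SIL-ALL (Wilson 95% interval 0.203 to 0.371%), 0.283% in JURKAT (0.209 to 0.382%), 0.274% in HPB-ALL (0.197 to 0.381%) and 0.134% in DND41 (0.0867 to 0.207%). The shares were 0.133% in SUP-B15 (0.0721 to 0.244%), 0.172% in REH (0.102 to 0.288%) and 0.101% in K562 (0.0463 to 0.220%). DND41 therefore lay among the other lines by this measure, while HPB-ALL, JURKAT and SIL-ALL lay above all of them. These intervals cover counting error only. The windows make up 0.0282% of hg19, and their peak density was 3.58 (K562) to 10.0 (JURKAT) times that of the whole list.

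**Figure D1:**
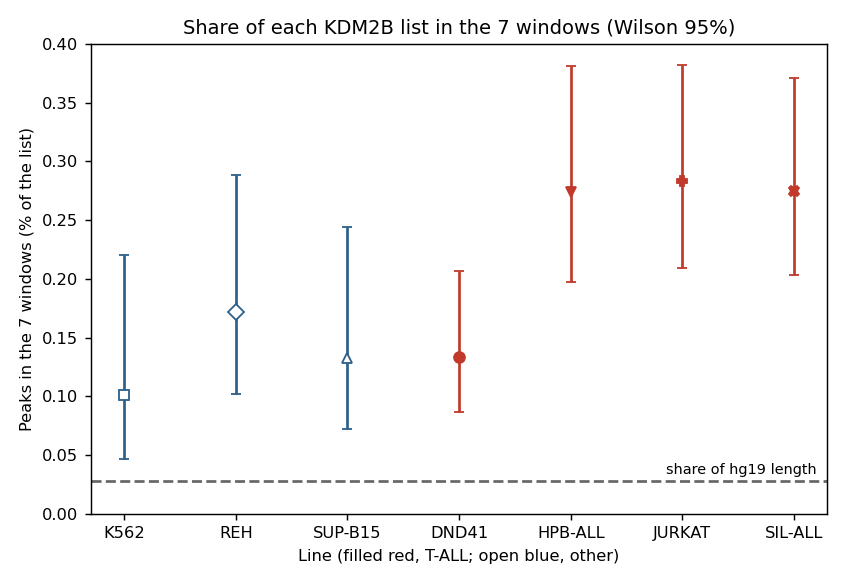
Share of each deposited KDM2B list that fell in the 7 gene windows (vertical axis, percent of the peaks of the list) for each line (horizontal axis), with Wilson 95% intervals as bars and the share of hg19 length covered by the windows as a dashed line. HPB-ALL, JURKAT and SIL-ALL stood at 0.274 to 0.283%, DND41 at 0.134%, and K562, REH and SUP-B15 at 0.101 to 0.172%.

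In most windows the peaks gathered in 1 or 2 short stretches, with a few peaks further off, most of all at TOX. This gathering was not tested against a background. Peaks of different lists that overlapped were merged, which gave 51 regions, and 9 of these held peaks of 4 or more lines (17.6%, against 17.4% of the 29071 merged regions of the genome). A peak in every T-ALL line, with or without others, was found in 6 regions (11.8%, against 10.6%). The regions common to all 7 lines were 3 (5.88%, against 2.44%), 1 each at TCF7, LEF1 and ETS1. Merging chains peaks that overlap in pairs, and of these 3 regions only the TCF7 one had bases under a peak in all 7 lines (233 bases, between 133450136 and 133450589 on chromosome 5). At 50% reciprocal overlap with the highest-scored peak no region held all 7. The GATA3 region was the 1 region that all 4 T-ALL lines shared and no other line had (1.96%, against 2.25%). At 50% reciprocal overlap it lost this pattern and the main RUNX3 region was the 1 region to have it. In 36 regions (70.6%, against 56.1%) the peaks came from T-ALL lines alone, in 1 region, at TCF7 in REH, from the other lines alone (1.96%, against 20.5%), and in 24 regions from a single line (47.1%, against 58.2%). Regions of 1 window are not independent of each other, and these shares were not tested.

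**Figure D2:**
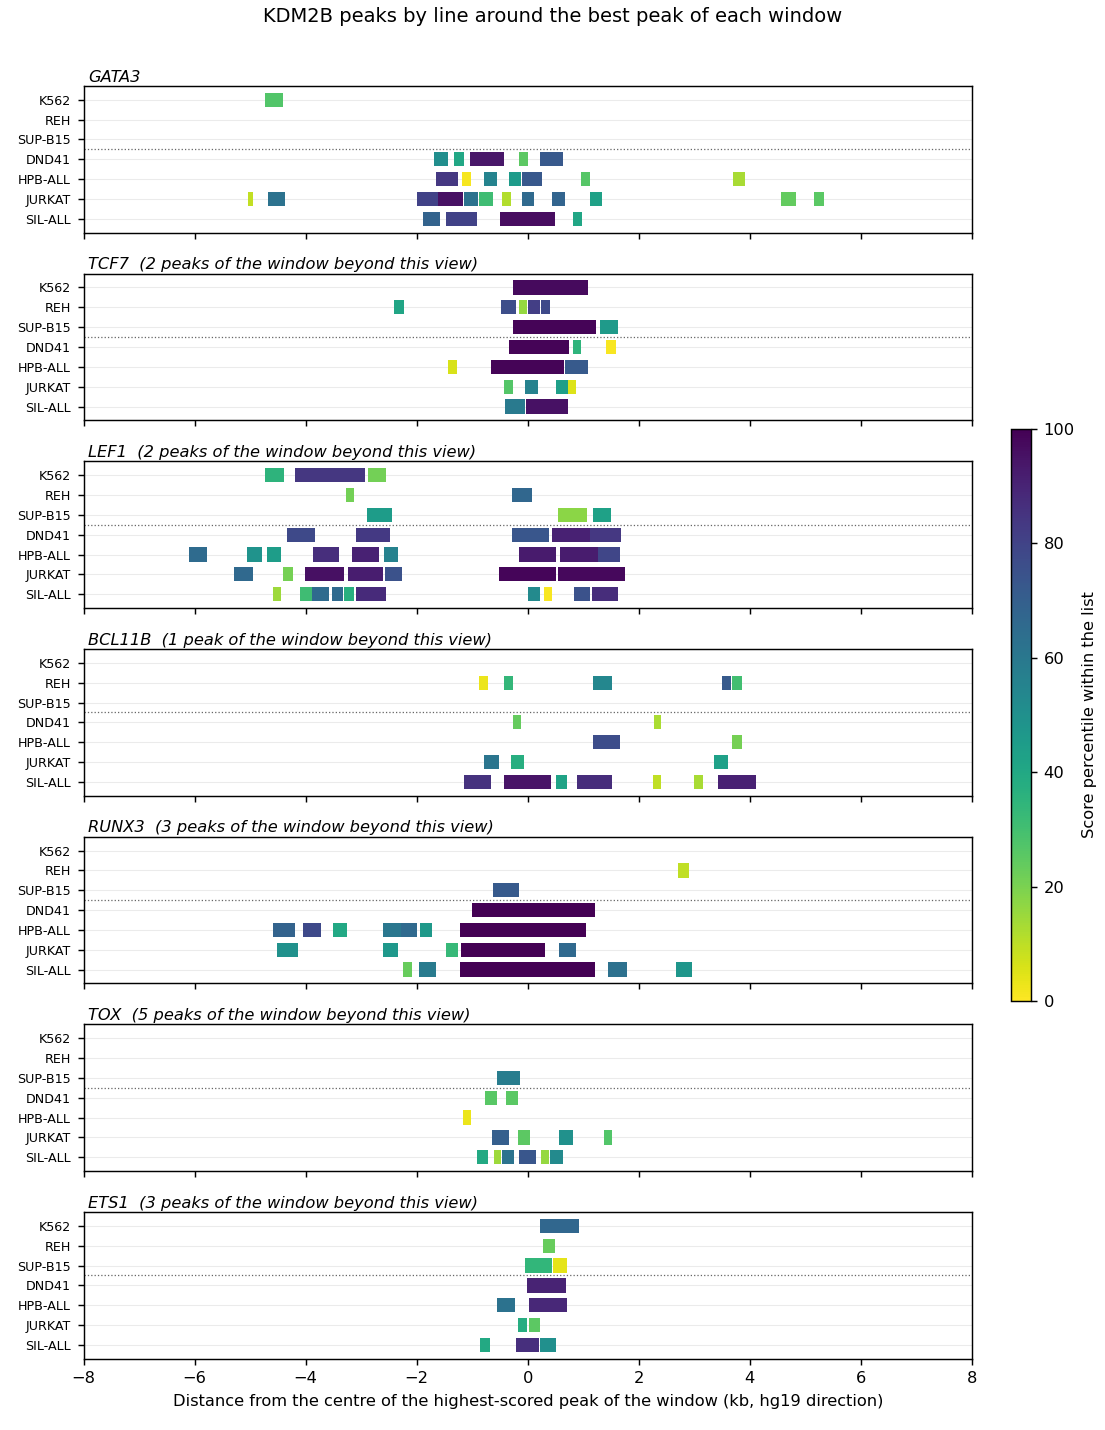
Position of KDM2B peaks in the 7 lines (rows) around the centre of the highest-scored peak of each gene window (horizontal axis, kb, in the direction of hg19), with colour giving the percentile of the peak's score within its own list and a dotted line between the T-ALL lines (below) and the others. Peaks of all 7 lines overlap at TCF7, at ETS1 the JURKAT peaks stop short of those of K562 and REH, GATA3 has 1 outlying peak in K562 and none in REH and SUP-B15, and the wide RUNX3 peak spans the centre in all 4 T-ALL lines.

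TCF7, the HMG-box factor TCF-1, was bound in all 7 lines at the same place, at chromosome 5, 133449738 to 133451629. The best scores there, which are the authors' own value per peak and rank peaks within a list only, were 750 in SIL-ALL, 86.6 in JURKAT, 1155 in HPB-ALL, 933 in DND41, 618 in SUP-B15, 105 in REH and 514 in K562. In their own lists these peaks stood at percentile 95.3, 56.0, 98.9, 98.8, 99.2, 81.6 and 97.3, in the same order. By rank JURKAT stood lowest, at percentile 56.0, and REH next, at 81.6, and in both the stretch was broken into several short peaks. The number of peaks in the window was 2 in SIL-ALL, 5 in JURKAT, 4 in HPB-ALL, 3 in DND41, 2 in SUP-B15, 5 in REH and 1 in K562. Because 1 wide peak and several narrow ones can cover the same stretch, the bases covered by peaks were counted too.

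The TCF7 window had 1130, 979, 2299 and 1412 covered bases in SIL-ALL, JURKAT, HPB-ALL and DND41, and 1827, 978 and 1343 in SUP-B15, REH and K562. The ranges overlapped widely, and the T-ALL mean was 1455 ± 591 (SD, n = 4) beside 1383 ± 426 (SD, n = 3) elsewhere (exact permutation p = 0.83, two-sided). The difference in peak number was 0.83 (exact permutation p = 0.657), and it turned to -1.08 with lists of equal length, was 0 without K562 and 2 without REH. The difference in bases was -130 without REH, -209 without HPB-ALL and 295 without SUP-B15. A missed threshold with 7 lines does not show that they bind TCF7 alike. Among tiles of this length with any peak, 25.4% had a peak in every T-ALL line, and of those 30.5% had more peaks and 36.5% more covered bases in every T-ALL line than in every other line. Of all such tiles with any peak the shares were 7.76% and 9.27%. A second TCF7 site, at chromosome 5, 133468003 to 133468456, was found in HPB-ALL (score 220) and JURKAT (score 55.6) only. TCF7 was the gene with the highest-scored peak of the 7 windows in K562, REH and SUP-B15.

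The RefSeq promoter table (build GRCh38.p14) had entries for 5 of the 7 genes, GATA3, TCF7, LEF1, BCL11B and RUNX3, and none for TOX and ETS1. Sequences of 4 entries, the 250 bases before a listed start, are shown because CpG is the letter pair that the CXXC finger reads and because the entries differ in it. Capitals mark every CG, which reads the same on both strands. Positions are GRCh38.p14 and cannot be set against the hg19 positions of the peaks, so no peak is placed on them. The first TCF7 start has 22 CG pairs (chr5:134115363-134115612, plus strand), against a median of 11 in all 35116 promoters of the table, 93.9% of which hold at least 1. A second TCF7 start 8005 bases further on has 1.

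TCF7 start 1: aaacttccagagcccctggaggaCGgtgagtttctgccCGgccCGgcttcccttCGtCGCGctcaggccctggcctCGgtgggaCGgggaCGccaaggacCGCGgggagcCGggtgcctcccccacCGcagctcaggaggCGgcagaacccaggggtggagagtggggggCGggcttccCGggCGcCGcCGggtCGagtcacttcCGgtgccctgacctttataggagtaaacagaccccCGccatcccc
LEF1 start 1: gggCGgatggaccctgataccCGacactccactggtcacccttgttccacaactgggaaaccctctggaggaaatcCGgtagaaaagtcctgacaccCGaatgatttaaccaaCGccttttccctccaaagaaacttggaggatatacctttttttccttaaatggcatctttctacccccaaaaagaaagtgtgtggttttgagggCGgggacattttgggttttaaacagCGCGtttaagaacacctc
RUNX3 start 1: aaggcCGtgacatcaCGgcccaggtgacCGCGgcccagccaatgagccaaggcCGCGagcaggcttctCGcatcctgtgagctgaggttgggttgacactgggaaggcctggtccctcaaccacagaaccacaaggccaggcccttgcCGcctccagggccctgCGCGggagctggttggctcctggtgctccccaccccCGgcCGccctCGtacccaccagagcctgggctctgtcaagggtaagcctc
RUNX3 start 2: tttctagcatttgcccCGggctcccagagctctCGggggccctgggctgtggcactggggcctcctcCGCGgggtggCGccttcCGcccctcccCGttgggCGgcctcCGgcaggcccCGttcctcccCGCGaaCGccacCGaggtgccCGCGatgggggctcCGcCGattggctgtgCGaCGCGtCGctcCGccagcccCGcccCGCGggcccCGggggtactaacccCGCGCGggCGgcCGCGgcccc

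Of these, the LEF1 start (chr4:108166302-108166551, minus strand) has 8 CG pairs, as many as or more than in 45.9% of all promoters. The upstream RUNX3 start (chr1:24965011-24965260, minus strand) has 13 and the downstream one (chr1:24930277-24930526, minus strand) 33, as many as or more than in 55.2% and 93.2% of promoters. The BCL11B start has 17, and the 6 GATA3 starts have 4 to 30. A count of CG letters says nothing of their methylation, which was not measured.

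GATA3, the zinc finger factor needed for early T-cell specification, had more peaks and more covered bases in every T-ALL line than in any other line. Peaks numbered 4 in SIL-ALL, 12 in JURKAT, 7 in HPB-ALL and 5 in DND41, and 1 in K562, with none in REH and SUP-B15. The covered bases were 2035, 3002, 1732 and 1635 in the 4 T-ALL lines in that order, against 322 in K562. The means were 2101 ± 624 bases (SD, n = 4) and 107 ± 186 bases (SD, n = 3), a difference of 1994 bases with the smallest p that the 35 splits allow (exact permutation p = 0.0286, two-sided). Adjusted over the genome tiles of this length with any peak the value was 0.472 (Benjamini-Hochberg on exact permutation p-values), and none of the 13223 tiles passed the adjustment, 800 having an unadjusted p below 0.05. With a smallest p of 0.0286, no tile could pass unless most tiles reached that p. The adjusted value therefore tells nothing for or against a difference at GATA3. With equal lists the difference in bases was 1325. The peak number gave a difference of 6.67 and an exact permutation p of 0.0571. It passed the threshold with a common score floor (5.25) and with each list kept from its median score up (3.75, exact permutation p = 0.0286 in both), and was 3.17 with equal lists and 1.67 with peaks joined within 500 bp. The common floor left 2794 to 3372 peaks in the other lists and 7406 to 15304 in the T-ALL lists, which widened the gap in list length. Of tiles of this length with any peak, 25.2% had a peak in every T-ALL line, and of those 30.7% had more peaks and 37% more covered bases in every T-ALL line than in every other line. Over all such tiles with any peak they were 7.76% and 9.34%.

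Most GATA3 peaks of the T-ALL lines merged into 1 region of 2682 bp at chromosome 10, 8095368 to 8098049. Its best scores were 902 in SIL-ALL, 325 in JURKAT, 305 in HPB-ALL and 386 in DND41, at percentiles 96.9, 95.6, 84.0 and 93.8. The highest SIL-ALL peak there was 999 bp wide, and the widest peak of the other T-ALL lines was a DND41 peak of 619 bp. The K562 peak lay apart, at 8092631 to 8092952 with a score of 63.7 (percentile 27.1), and overlapped a JURKAT peak with a score of 95.1. HPB-ALL and JURKAT also had peaks further along, between 8101063 and 8102708. The RefSeq table lists the antisense gene GATA3-AS1 next to GATA3, and peaks between them cannot be given to either gene. Other genes are listed within 5 kb of each of the 7 genes, among them VDAC1 and SKP1 at TCF7. They also include TOX-DT at TOX, ETS1-AS1 at ETS1 and LOC124903412 at BCL11B. A peak named for a gene is therefore a peak of its window and may belong to a neighbour.

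LEF1, the HMG-box partner of TCF7, was bound in all 7 lines, and more of its window was covered in the T-ALL lines. The peaks numbered 10 in SIL-ALL, 7 in JURKAT, 11 in HPB-ALL and 5 in DND41, and 3 in SUP-B15, 2 in REH and 3 in K562. In the same order they covered 2728, 4395, 4484 and 3018 bases in the T-ALL lines and 1288, 504 and 1937 bases in the others, again without overlap. The means were 3656 ± 913 (SD, n = 4) and 1243 ± 718 (SD, n = 3), a difference of 2413 bases (exact permutation p = 0.0286, two-sided; 0.371 after Benjamini-Hochberg adjustment over 8590 tiles, none of which passed and 661 of which had an unadjusted p below 0.05). As at GATA3, no tile could pass unless most tiles reached the smallest p. The difference in peak number was 5.58 (exact permutation p = 0.0571). It passed the threshold with equal lists (4.25), a common score floor (7.33) and each list kept from its median score up (5.83; exact permutation p = 0.0286 in all 3), and was 3.58 with the window narrowed and 1.83 with peaks joined within 500 bp, both short of it. The call on covered bases was lost with equal lists (2232 bases, exact permutation p = 0.0857), with only the better-scored part of each list, from its median score up (2772 bases, p = 0.0571) and with the window narrowed by 5 kb at each end (1060 bases, p = 0.171). Among tiles of this length with any peak 35.7% had a peak in every T-ALL line, and of those 30.3% had more peaks and 33.9% more covered bases in every T-ALL line. Of all such tiles with any peak the shares were 10.8% and 12.1%.

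The LEF1 peaks formed a pair of neighbouring regions near the end of the window. The first, at chromosome 4, 109088132 to 109090601, held peaks of all 7 lines, though no base was under a peak in all of them. Its best scores were 434 in SIL-ALL, 341 in JURKAT, 430 in HPB-ALL, 209 in DND41, 71.0 in SUP-B15, 54.7 in REH and 201 in K562. In their own lists these were percentiles 88.3, 96.1, 90.9, 83.5, 45.1, 21.2 and 84.2, in the same order. The second, at 109092359 to 109094622, had no K562 peak, and scores of 81.4 in REH (percentile 66.8) and 69.6 in SUP-B15 (percentile 42.9). In SIL-ALL, JURKAT, HPB-ALL and DND41 the scores were 405, 605, 491 and 305, at percentiles 87.3, 98.8, 92.7 and 91.0. K562 was therefore the line with only the first region. The second region lay within 5 kb of the window's end, which is why narrowing the window removed it. LEF1-AS1, an antisense gene, neighbours LEF1 in the RefSeq table, so the second region cannot be assigned to LEF1 alone. HPB-ALL had 3 further regions of its own, at 108972422 to 108972887 (score 385), 109081085 to 109081308 (score 151) and 109086776 to 109087100 (score 179). Chromosome arm 4q as a whole held 3.09% of the HPB-ALL list (Wilson 95% interval 2.80 to 3.40%) and 1.40 to 2.51% of the other lists, and the part of this in the LEF1 count was not tested.

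BCL11B, the zinc finger factor of T-cell commitment, had peaks in all 4 T-ALL lines and also in REH. REH, a B-cell precursor line, had 5 peaks, beside 7 in SIL-ALL, 4 in JURKAT, 2 in HPB-ALL and 2 in DND41, and K562 and SUP-B15 had none. The covered bases were 993 in REH, 3140 in SIL-ALL, 961 in JURKAT, 657 in HPB-ALL and 273 in DND41, so that SIL-ALL alone exceeded REH. The means were 1258 ± 1286 (SD, n = 4) and 331 ± 573 (SD, n = 3), a difference within the spread of the lines (exact permutation p = 0.314, two-sided, for bases and for peak number). As at TCF7, a missed threshold does not show that the lines bind BCL11B alike. Without REH every T-ALL line was necessarily above K562 and SUP-B15, which had no peaks, and the difference in peak number was 3.75 in place of 2.08. It was 1.25 without K562 and 1.25 without SUP-B15. Without SIL-ALL the differences were 299 bases and 1 peak, and with equal lists 569 bases and 0.17 peaks. Of tiles of this length with any peak 34% had a peak in every T-ALL line, and of those 30.7% had more peaks and 34.1% more covered bases in every T-ALL line than in every other line. Over all such tiles with any peak they were 10.4% and 11.6%.

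Apart from 1 JURKAT peak at chromosome 14, 99658480 to 99658677, all BCL11B peaks lay between 99736087 and 99741338. No region there was shared by all T-ALL lines. The region at 99736812 to 99737656 had scores of 58.8 in REH, 71.1 in DND41, 70.0 in JURKAT and 696 in SIL-ALL, and none in HPB-ALL. Within their own lists these were percentiles 33.8, 23.8, 37.2 and 94.6, in the same order. The region at 99740591 to 99741338 had scores of 511 in SIL-ALL, 74.6 in JURKAT, 92.3 in HPB-ALL and 87.6 in REH, and no DND41 peak. SIL-ALL was the line with strong and wide BCL11B peaks, at percentile 94.6 for the best, and DND41 the weakest of the T-ALL lines at percentile 23.8.

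RUNX3, the Runt-domain factor of CD8 T cells, carried the strongest peak of the 7 windows in each T-ALL line. The region at chromosome 1, 25254888 to 25257331, had scores of 3099 in SIL-ALL, 1338 in JURKAT, 1942 in HPB-ALL and 1685 in DND41. These peaks were 2441, 1527, 2276 and 2215 bp wide and ranked 16, 27, 28 and 41 in their lists. The SIL-ALL score is close to 3100, the highest value of that list, which 14 of its peaks share. SUP-B15 had a peak of 458 bp in the region with a score of 106, REH had only a peak of score 51.9 beside it, and K562 had no peak in the window. The RUNX3 peak was thus near the top of each T-ALL list, at percentile 99.7 to 99.9, whereas the SUP-B15 peak stood at percentile 72.1.

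The RUNX3 window had 3861 covered bases in SIL-ALL, 2694 in JURKAT, 4269 in HPB-ALL and 2215 in DND41, 930 in SUP-B15, 199 in REH and 0 in K562. The groups did not overlap, and the means were 3260 ± 965 (SD, n = 4) and 376 ± 490 (SD, n = 3), a difference of 2883 bases (exact permutation p = 0.0286, two-sided; 0.427 after Benjamini-Hochberg adjustment over 10901 tiles, none of which passed and 729 of which had an unadjusted p below 0.05). Here too no tile could pass unless most tiles reached the smallest p. The call was lost when peaks within 500 bp were joined (3383 bases, exact permutation p = 0.0571). Peak number did overlap, with 6, 5, 8 and 1 peaks in the T-ALL lines against 2, 1 and 0 (difference 4.0, exact permutation p = 0.114), since the single wide DND41 peak counted as 1. With equal lists the difference in peak number was 2.08, and with peaks joined 1.5. Among tiles of this length with any peak 29.5% had a peak in every T-ALL line, and of those 30% had more peaks and 35.2% more covered bases in every T-ALL line. Of all such tiles with any peak the shares were 8.86% and 10.4%.

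SIL-ALL alone had a second RUNX3 site, at 25291392 to 25291703 with a score of 213, whose centre lay 35.4 kb from that of its main peak. In the RefSeq table the 2 RUNX3 starts printed above are 34.7 kb apart in GRCh38.p14, a distance in another build that places neither peak. The antisense gene RUNX3-AS1 is listed beside RUNX3, so the main region cannot be assigned to either. Smaller peaks flanked the main region, with 2 in SIL-ALL, 3 in JURKAT and 6 in HPB-ALL between 25251521 and 25254846. Another site, between 25242369 and 25242840, was found in SUP-B15 (score 64.8) and HPB-ALL (score 84.2). K562 had the largest share of its list on arm 1p, 9.31% against 5.03 to 6.60% in the other lists, and the part of this in the RUNX3 values was not tested.

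**Figure D3:**
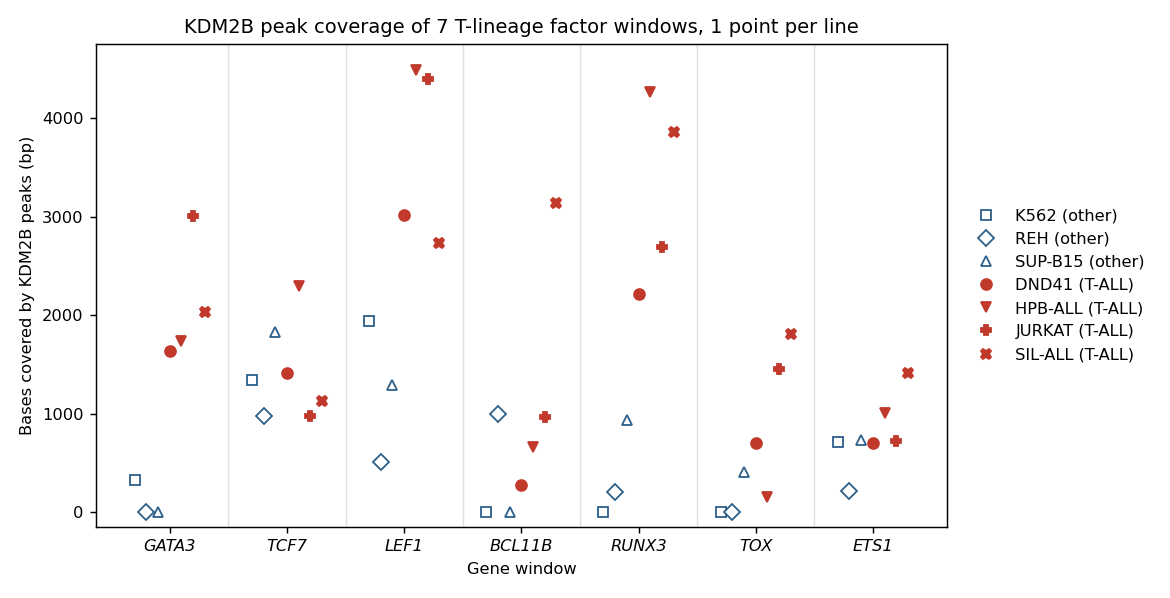
Bases covered by KDM2B peaks (vertical axis, bp) in each gene window (horizontal axis), 1 point per line, filled red for T-ALL lines and open blue for K562, REH and SUP-B15. The T-ALL points lie above all others at GATA3, LEF1 and RUNX3 and overlap them at TCF7, BCL11B, TOX and ETS1.

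TOX, an HMG-box factor needed for CD4 T-cell development, had a highest score of 230 in any line, the lowest such value of the 7 genes. Its peaks numbered 8 in SIL-ALL, 6 in JURKAT, 1 in HPB-ALL, 3 in DND41 and 1 in SUP-B15, and K562 and REH had none. The covered bases were 1804, 1457, 149 and 696 in the T-ALL lines in that order and 410 in SUP-B15, so HPB-ALL lay below SUP-B15. The difference was 890 bases (exact permutation p = 0.114, two-sided) and 4.17 peaks (exact permutation p = 0.0857). It was 225 bases and 0.92 peaks with equal lists, and 345 bases and 1.42 peaks with each list kept from its median score up. Of tiles of this length with any peak 48.3% had a peak in every T-ALL line, and of those 32.2% had more peaks and 30.7% more covered bases in every T-ALL line. Over all such tiles with any peak they were 15.5% and 14.8%. The single HPB-ALL peak had a score of 80.7 in a list whose lowest score is 80. Arm 8q held 4.43% of the SUP-B15 list (Wilson 95% interval 3.99 to 4.92%) against 2.12 to 3.13% of the others, and the part of this in its TOX peak was not tested.

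Most TOX peaks lay within a few kilobases of each other near the end of the window. The region at chromosome 8, 60029997 to 60031058, had scores of 230 in SIL-ALL, 111 in JURKAT, 72.7 in DND41 and 83.3 in SUP-B15. These were percentiles 73.3, 70.3, 25.8 and 58.1 of their own lists, in the same order. At the other end of the window, the region at 59714002 to 59714369 had scores of 86.2 in DND41, 82.1 in JURKAT and 110 in SIL-ALL. Their percentiles were 42.0, 52.0 and 36.0. A further place, at 59969184 to 59969514, was found in JURKAT (score 101) and SIL-ALL (score 194) only.

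ETS1, the founding ETS-domain factor, used across lymphoid cells, had peaks of all 7 lines in 1 merged region at chromosome 11, 128391906 to 128393040. The JURKAT peaks there ended at 128392324, before the K562 peak began at 128392327 and the REH peak at 128392394, so no base was under a peak in all 7 lines. The best scores in this region were 386 in SIL-ALL, 70.4 in JURKAT, 383 in HPB-ALL, 293 in DND41, 64.1 in SUP-B15, 55.4 in REH and 119 in K562. In their own lists these were percentiles 86.4, 37.6, 88.7, 90.3, 34.2, 23.3 and 67.1, in the same order. JURKAT was the lowest of the T-ALL lines, as at TCF7, and lay below K562. The peaks numbered 5, 3, 2 and 1 in SIL-ALL, JURKAT, HPB-ALL and DND41 and 2, 1 and 1 in SUP-B15, REH and K562. In the same order they covered 1415, 720, 1004 and 699 bases, and 734, 214 and 714 bases. The ranges overlapped (difference 406 bases, exact permutation p = 0.257; difference 1.42 peaks, exact permutation p = 0.371; both two-sided). The difference in bases was 236 without REH and 254 without SIL-ALL, and that in peaks was 0.67 without SIL-ALL. With a common score floor it was 634 bases, and in peaks 0.83 with equal lists and 0.75 with peaks joined within 500 bp. Among tiles of this length with any peak 36.4% had a peak in every T-ALL line, and of those 29.9% had more peaks and 33.2% more covered bases in every T-ALL line. Of all such tiles with any peak the shares were 10.9% and 12.1%.

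A further ETS1 site, at 128346594 to 128346961, was found in JURKAT (score 117) and SIL-ALL (score 328) only, and in JURKAT it scored higher than the site common to all lines. JURKAT and SIL-ALL, lines known for TAL1 expression, were the only lines in 3 of the 51 regions (5.88%, against 2.08% of all merged regions), 1 at ETS1 and 2 at TOX, the second TOX one at chromosome 8, 60031303 to 60031719. DND41 and HPB-ALL, known for TLX3, had none to themselves (against 1.37%). These pairs were compared after their values were seen, and with 2 lines a side no test was made.

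Set side by side, the windows with more peaks in every T-ALL line than in every other line were 2 of 7, GATA3 and LEF1, and those with more covered bases were 3 of 7, with RUNX3. The first count was 0 with peaks joined within 500 bp and 1 with windows narrowed by 5 kb at each end, and the second was 2 with equal lists and 2 with narrowed windows, in both without LEF1. The same orders were found in 29.9 to 32.2% and 30.7 to 37% of the tiles that held a peak in every T-ALL line, and in 7.76 to 15.5% and 9.27 to 14.8% of all tiles with any peak. All 7 windows belong to the first kind of tile, and since the genes were chosen with results known, nothing was read from these counts about the genes as a set. What the windows shared in the full lists was a peak in every T-ALL line at each of the 7 genes. With equal lists this no longer held, and the T-ALL lines had a peak in a mean of 6 windows. The genes differed in rank within a list. The order of best percentile in SIL-ALL was RUNX3 (99.9), GATA3 (96.9), TCF7 (95.3), BCL11B (94.6), LEF1 (88.3), ETS1 (86.4) and TOX (73.3), and in JURKAT it was RUNX3 (99.8), LEF1 (98.8), GATA3 (95.6), ETS1 (72.4), TOX (70.3), BCL11B (61.2) and TCF7 (56.0). In DND41 it was RUNX3 (99.7), TCF7 (98.8), GATA3 (93.8), LEF1 (91.0), ETS1 (90.3), TOX (42.0) and BCL11B (23.8), and in HPB-ALL RUNX3 (99.8), TCF7 (98.9), LEF1 (92.7), ETS1 (88.7), GATA3 (84.0), BCL11B (76.6) and TOX (2.79). RUNX3 was first in all 4, and TOX was last or next to last except in JURKAT, where TCF7 and BCL11B stood lower. Percentiles of lists with different lowest scores are ranks and do not compare the strength of binding between lines.

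**Figure D4:**
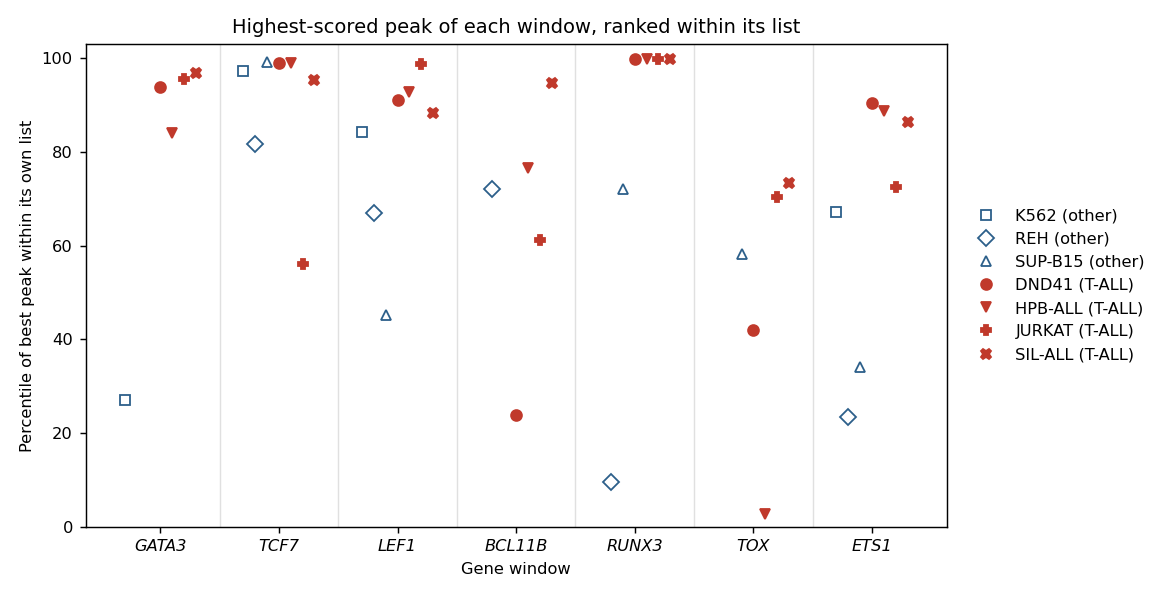
Percentile of the highest-scored KDM2B peak of each gene window within its own list (vertical axis) by gene (horizontal axis), 1 point per line with a peak, filled red for T-ALL lines and open blue for the others. RUNX3 stands at 99.7 to 99.9 in the 4 T-ALL lines and at 72.1 in SUP-B15, and the TCF7 value of JURKAT (56.0) lies below those of the other lines.

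Of the 169 peaks, 31 lay inside a window within 5 kb of its edge, 15 at LEF1, 6 at TCF7, 6 at BCL11B and 4 at TOX. The nearest peak outside any window was 1 JURKAT peak at chromosome 4, 108957304 to 108957442, which lay 5558 bp before the LEF1 window with a score of 51.7, and no other peak lay outside within 10 kb of an edge. The peaks nearest an edge on the inside were LEF1 peaks of the 4 T-ALL lines, 1378 bp (JURKAT, score 479) to 1497 bp (SIL-ALL, score 405) from the window's end.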

How the data were processed

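KDM2B was immunoprecipitated with a Millipore antibody from cells grown in IMDM with FBS, per the labels. The series lists 12 samples, 7 KDM2B libraries and 5 inputs. DND41 and JURKAT, both T-ALL lines, have no input in the series, and each of the other lines has an input. Input signal was not used here. Per the submitters' processing notes, FastQC 0.10.1 and Bowtie 1.1.1 were run on build hg19. The deposited lists give chromosome, start, end, a name beginning with MACS and a score per peak as the authors' own value. Its unit, its control and its cut-off were not given in the sources used here. Depth is unknown, and deeper libraries can give longer lists.

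The 7 genes, their windows and the lists compared were chosen with earlier results of these data known. All 7 genes are described, with every merged region of 4 or more lines. Other regions are named because a line or pair of lines stood out after their values were seen. Peak number and, added after the data were seen, covered bases were compared by a two-sided exact permutation over 35 splits (smallest p 0.0286), 14 comparisons in all. The same was done for all hg19 tiles of each window's length with any peak, with Benjamini-Hochberg adjustment over those tiles. With 35 splits no tile can pass this adjustment unless most tiles reach the smallest p, so it cannot decide on a window. The code was tested on simulated data. An hg19 annotation and genome were not used here, so peaks were not assigned to exons, introns or starts, and other genes of the pathway were not analysed here. Positions are hg19, counted from 1, except those of RefSeq promoters. Alternatives were equal lists of 5942 top-scored peaks, a common score floor of 80.03, the part of each list from its median score up, joining within 500 bp, windows changed by 5 kb, midpoints inside windows, 50% reciprocal overlap and each line left out. The common floor puts 1 cut on scores that rank peaks within a list only. It made the T-ALL lists longer still beside the others, so a gain under it cannot be told apart from list length. The median cut left 6383 to 7652 peaks in the T-ALL lists and 2971 to 4073 in the others. Python 3.11.15, numpy 2.4.6, pandas 2.3.3, scipy 1.17.1, matplotlib 3.10.9 and hg19 bands of circlize 0.4.16 were used.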

Additional observations from a re-analysis of the deposited data

Results flagged for a closer look

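Over the 4 T-ALL lines, 25 values were examined for a line far from the other lines, and 3 were found against 1.25 by chance. The best TCF7 peak of JURKAT stood at percentile 56.0, below the 95.3 to 98.9 of the other T-ALL lines. DND41 had 0.134% of its list in the windows, below the 0.274 to 0.283% of the other T-ALL lines. The same DND41 count gave a density 4.74 times that of its whole list, against 9.71 to 10.0 times in the other T-ALL lines, and is not independent of its share. JURKAT and DND41 are the lines without an input in the series, and the part of this in the flagged values was not tested.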

How the results depend on the processing

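Of 276 alternative values, 228 kept their side of the threshold or moved little, 25 lost the threshold, 5 gained it, 13 moved and 5 reversed. The 228 is no measure of stability, because part of it was fixed in advance. Widened windows and midpoints inside windows held the same peaks as reported, so they gave the same values. The difference in peaks in the windows, 24.8 as reported, was 10.3 with equal lists, 16.3 with each list kept from its median score up and 10.1 with peaks joined within 500 bp, and 22.3 to 29.7 with a line left out. The difference in windows with a peak, 2.33, was 3.75 with a common floor and 3.25 at the median score (2 to 2.5 with a line left out). The difference in the share of the list, 0.106 percentage points, was 0.174 with equal lists and 0.173 at the median score (0.0891 to 0.142 with a line left out). Windows with more peaks in every T-ALL line were 0 with peaks joined within 500 bp and 1 with narrowed windows (2 to 3 with a line left out), and those with more covered bases were 2 with equal lists, 2 with narrowed windows (LEF1 lost in both) and 3 to 4 with a line left out. The region of the 4 T-ALL lines alone was at RUNX3 in place of GATA3 at 50% reciprocal overlap. Regions of all 7 lines were 0 at 50% reciprocal overlap, 0 with equal lists, 1 with a common floor and 1 at the median score. TCF7 alone reversed, to -1.08 peaks and -337 bases with equal lists, -17.8 bases at the median score, -130 bases without REH and -209 bases without HPB-ALL (up to 295 bases, without SUP-B15). With a line left out the smallest p is 0.0667 or 0.1, so calls are lost by fewer lines and none could be gained. For the other reversals and moves the cause was not tested. No paired analysis was possible because a line had a single list.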
